A study of Homo sapiens with 10 samples.

Results

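The genes described here are 40 human genes of drug and xenobiotic metabolism that the pregnane X receptor (PXR, gene NR1I2) and the aryl hydrocarbon receptor (AHR) are known to control or to work with. They were taken by symbol from a list of known functions, with no expression threshold. All 40 were present and took 41 of the 58870 rows of the count table, because the symbol AHRR has 2 rows with different identifiers.

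PXR and AHR are receptors that sense foreign chemicals inside the cell. PXR binds many drugs and, as a heterodimer with a retinoid X receptor, drives genes such as CYP3A4, ABCB1 and UGT1A1. AHR binds planar aromatic compounds, enters the nucleus, pairs with ARNT and drives CYP1A1, CYP1A2, CYP1B1 and UGT1A6, and also AHRR and TIPARP, whose products restrain AHR in return. The enzymes act in sequence, with cytochromes P450 oxidising a compound, transferases coupling it to glucuronic acid, sulfate or glutathione, and transporters pumping it or its conjugate out. LS180, an established human colorectal cancer line, is widely used as a cell model of drug metabolism in the intestine.

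The data were mRNA sequencing of untreated LS180 cells that carried CRISPR interference, in which a guide RNA leads an inactive Cas9 to a promoter and represses the gene. In 3 lines (sg1, sg2, sg3) the guide was aimed at RNASE1, which encodes a secreted ribonuclease, and in 2 lines (NTC1, NTC2) at no gene. Each line gave a library lettered B and a library lettered A, so that 6 guide libraries stood beside 4 NTC libraries and 5 B libraries beside 5 A libraries. All lines were grown in the same serum-containing medium, and the labels do not say whether a line is 1 clone, or whether its B and A libraries are separate cultures. The p-values therefore describe only how these libraries vary, which may be a technical spread.

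Libraries held 39026605 to 45050991 expected counts, and 15418 to 15802 genes had 10 or more. RNASE1 stood at 2.12 ± 1.253 CPM, expected counts over the library total on the usual per-million scale, in guide lines (SD, n = 3 lines) and 20.6 ± 0.581 CPM in NTC lines (SD, n = 2 lines), a log2 fold change of -3.26 (SE 0.23, adjusted p = 8.37e-05). Of 10 markers of intestinal epithelium, all 10 averaged 1 CPM or more. Of 7 hepatocyte markers only SERPINA1 did, and ALB, APOB, FGB and CYP7A1 were at 0 in all 10 libraries. Markers of endothelium reached 1 CPM in 0 of 5, those of leukocytes in 1 of 6 (LYZ, with PTPRC at 0) and those of fibroblasts in 3 of 6 (with COL1A2 at 0).

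Basal levels were compared between genes as CPM per kilobase of the longest protein-coding transcript, averaged over the 5 lines. Conjugating enzymes led. GSTP1, the pi class glutathione transferase, had the highest level at 899.7 ± 14.1 CPM per kilobase, followed by MGST1, a microsomal glutathione transferase, at 266 ± 5.80 and UGT1A1, the glucuronosyltransferase of bilirubin, at 128 ± 5.20 (SD, n = 5 lines each). UGT1A6, a glucuronosyltransferase of small phenols, followed at 59.6 ± 2.10 CPM per kilobase. POR, the reductase that supplies electrons to microsomal cytochromes P450, stood at 52.2 ± 0.744 CPM per kilobase. CYP2S1 was the most abundant cytochrome P450 of the list, at 47.6 ± 1.90 CPM per kilobase. ABCB1, the efflux pump P-glycoprotein, had 33.4 ± 2.05 CPM per kilobase and UGT1A10, a glucuronosyltransferase of the gut, 28.9 ± 2.05.

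The 2 receptors differed in level. AHR had 14.7 ± 0.344 CPM per kilobase and NR1I2 1.52 ± 0.0790. Of the feedback genes, TIPARP, which ADP-ribosylates AHR, had 7.51 ± 0.103 CPM per kilobase. The cytochromes P450 of AHR ran from CYP1B1 at 6.93 ± 0.294 through CYP1A1 at 2.56 ± 0.492 to CYP1A2 at 0.114 ± 0.0165 CPM per kilobase. The CYP3A enzymes, which oxidise a large share of all drugs in liver and gut, were low, with CYP3A5 at 0.960 ± 0.0735, CYP3A4 at 0.159 ± 0.0249 and CYP3A7, the fetal form, at 0.0682 ± 0.0274 CPM per kilobase (SD, n = 5 lines each).

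The other cytochromes P450 spanned a wide range of CPM per kilobase. CYP2J2, which epoxidises arachidonic acid, reached 19.5 ± 1.55 and CYP4F12, a fatty acid hydroxylase, 4.63 ± 0.386, while CYP2W1, CYP4F3, CYP2C18 and CYP2B6 lay between 0.608 and 1.00. Among the sulfotransferases SULT1A1, the main enzyme for small phenols, led with 16.7 ± 0.367 CPM per kilobase, and SULT2B1, a cholesterol sulfotransferase, had 1.98 ± 0.136. CES2, a carboxylesterase that cleaves prodrugs in the gut, stood at 11.6 ± 0.194 CPM per kilobase and ABCC3, a basolateral pump for conjugates, at 5.94 ± 0.485, against 0.244 ± 0.0258 for its apical relative ABCC2 (SD, n = 5 lines each).

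Of the 41 rows, 17 averaged 10 CPM or more (8 of them 100 CPM or more), 16 averaged 1 to 10 CPM and 8 were under 1 CPM. At the bottom were CYP2C8, with 0 to 4 counts per library, ABCG2, the efflux pump BCRP, with 0 to 7, and GSTA1, an alpha class glutathione transferase, with 1 count in both NTC2 libraries and 0 in the other 8. A count of 0 allows up to 3 counts, or 0.0666 to 0.0769 CPM over the range of depths, for counting error only. These 3 rows passed no filter on low counts and were not tested, and CYP3A7 was also left out of the test of letters. Dividing by the length of all merged exons in place of the longest transcript moved no gene by more than 7 places in the order, but lowered the level of 13 rows by over 1.5 times. MGST1 then had 47.5, UGT1A6 28.5, POR 21.6 and SULT1A1 3.50 CPM per kilobase.

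**Figure D1:**
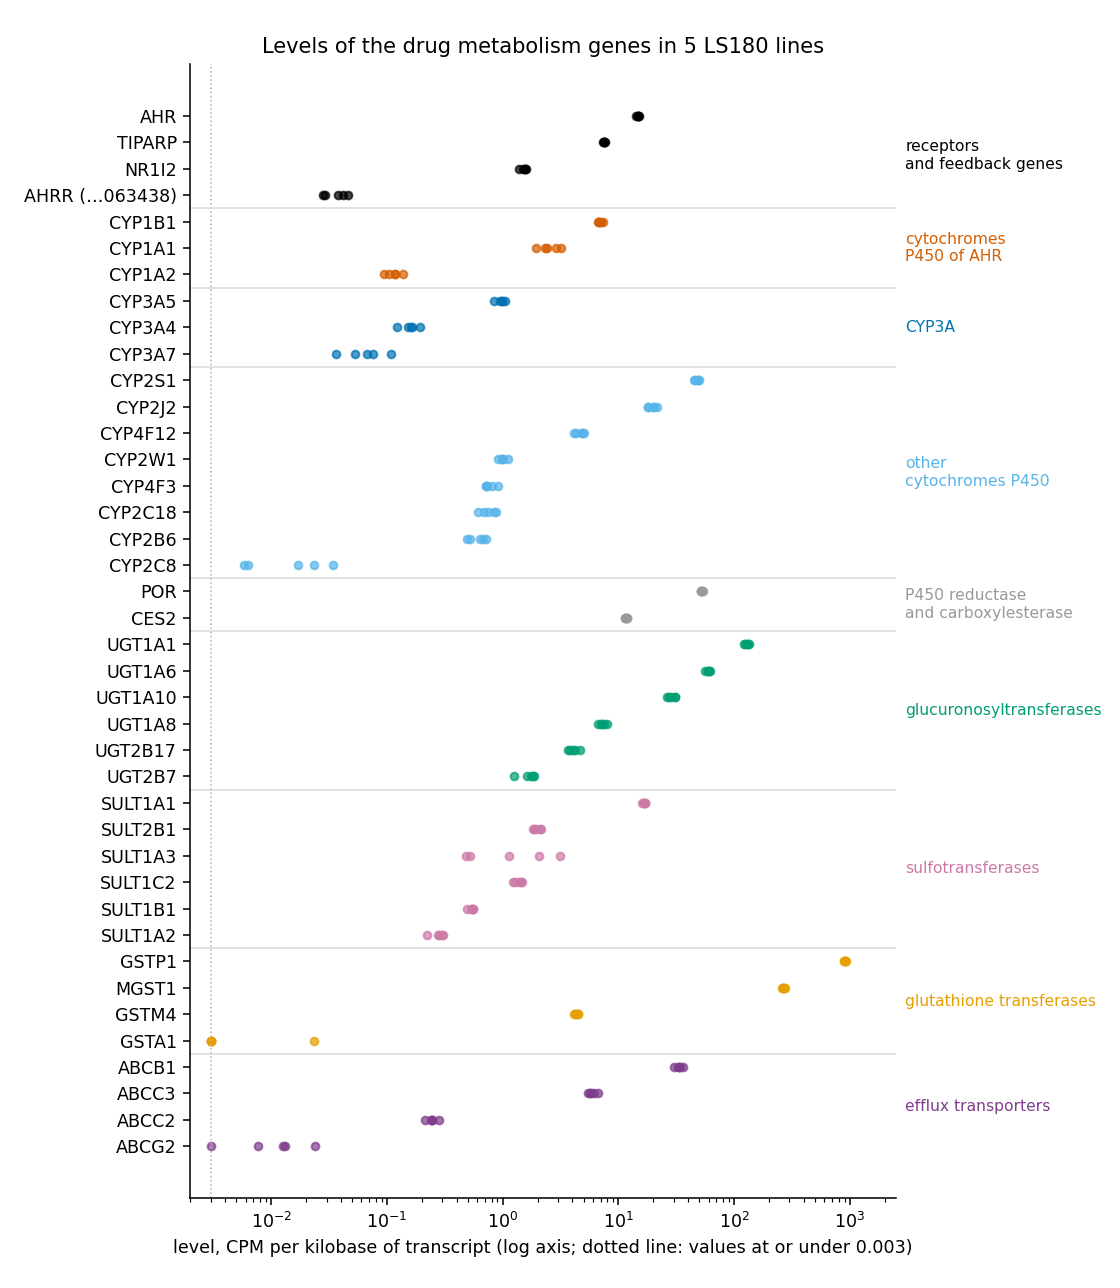
Level of each drug metabolism gene in CPM per kilobase of its longest protein-coding transcript on a log axis, grouped by role. Each point is 1 of the 5 LS180 lines (mean of its B and A library), and values of 0 are drawn on the dotted line. Levels run from 899.7 CPM per kilobase for GSTP1 down to GSTA1, which had no count in 4 of the 5 lines, and points of a gene lie close together except for SULT1A3 and genes near 0. The AHRR row with no length in the annotation is not shown.

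The table's B and A libraries differed at many genes, and the drug metabolism genes were among them. In B libraries, taken against A libraries with the line as a block, 17 of the 37 rows tested passed an adjusted p of 0.05, or 45.9%, beside 32.1% of all 15462 genes tested. Of these, 10 were higher in B, beside 15.9% of all genes higher, and 7 were lower in B, beside 16.2% of all genes lower. The median log2 fold change of the 37 rows was 0.03, and that of all genes was -0.00084. By role, 5 of the 6 glucuronosyltransferases were higher in B, and 0 of the 6 sulfotransferases passed the test. SULT1A4, a copy of SULT1A3 that is not on the list, was lower in B (log2 fold change -0.22, SE 0.07, adjusted p = 0.0251). Several genes of both roles share reads with a copy, so their rows are not fully separate results. In bulk RNA, fewer cells with a transcript and less of it in each cell cannot be told apart.

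All 6 glucuronosyltransferases attach glucuronic acid to drugs, hormones or bilirubin. UGT1A10 stood at 78.0, 88.7, 76.0, 76.0 and 90.7 CPM in the B libraries of sg1, sg2, sg3, NTC1 and NTC2, against 60.02, 61.0, 56.8, 51.2 and 58.2 CPM in their A libraries. Every B library lay above every A library, and the log2 fold change was 0.51 (SE 0.04, adjusted p = 6.44e-07). UGT1A8, the neighbouring intestinal gene, had 19.4, 19.99, 21.0, 19.3 and 23.5 CPM in B, against 16.4, 13.7, 13.8, 12.5 and 15.1 CPM in A. It too showed no overlap, with a log2 fold change of 0.53 (SE 0.06, adjusted p = 1.65e-05). UGT1A1 rose less, with 498, 425, 456, 440.0 and 485 CPM in B, against 401, 411, 413, 390.2 and 422 CPM in A (log2 fold change 0.18, SE 0.03, adjusted p = 0.000729). UGT1A6, in contrast, had 157, 136, 139, 144 and 159 CPM in B, against 139, 159, 139.6, 158 and 146 CPM in A, with overlapping libraries and a log2 fold change of -0.01 (SE 0.05, adjusted p = 0.857).

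The UGT1A genes lie on chromosome 2 of GRCh38 on the plus strand and use different first exons with the same remaining exons. In GENCODE release 29 UGT1A8 starts at 233617645, UGT1A10 at 233636454, UGT1A6 at 233691607 and UGT1A1 at 233760248, and all end between 233773299 and 233773310. Over windows of 75 bases, 72.5% of the UGT1A6 transcript, 66.9% of UGT1A8, 64.8% of UGT1A10 and 33.7% of UGT1A1 occurred unchanged in a transcript of another gene, so the counts of each are an estimate. UGT1A1 took 63.6% of all UGT1A counts in B libraries and 63.8% in A libraries, UGT1A6 20.3% in B and 23.3% in A, and UGT1A10 11.3% in B and 9.00% in A. With all UGT1A genes summed to 1 unit, the log2 fold change of B over A was 0.18 (SE 0.03, adjusted p = 0.000407).

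From a separate locus, UGT2B17, which clears androgens, had 9.01, 8.79, 8.32, 10.8 and 11.8 CPM in the B libraries of sg1, sg2, sg3, NTC1 and NTC2, against 7.87, 7.12, 7.03, 6.90 and 7.53 CPM in A. The libraries did not overlap (log2 fold change 0.41, SE 0.08, adjusted p = 0.00115), and 18.4% of its windows were shared with UGT2B15. UGT2B7, which conjugates opioids, had 2.58, 3.91, 4.196, 4.13 and 3.63 CPM in B, against 2.16, 3.16, 2.76, 2.54 and 2.48 CPM in A. It was higher in B in all 5 lines, although the letters overlapped (log2 fold change 0.49, SE 0.11, adjusted p = 0.00360).

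Among the receptors, AHR had 111, 107, 111, 114 and 112 CPM in the B libraries of sg1, sg2, sg3, NTC1 and NTC2, against 93.8, 99.6, 93.9, 93.4 and 83.9 CPM in A. The B libraries all lay above the A libraries, and the log2 fold change was 0.26 (SE 0.04, adjusted p = 0.000103). NR1I2, the gene of PXR, ran from 5.91 to 7.37 CPM in B and from 5.97 to 7.34 CPM in A and did not pass the test (log2 fold change 0.05, SE 0.08, adjusted p = 0.673). CYP1A1, the classic target of AHR, stood at 12.5, 4.97, 6.68, 7.67 and 10.9 CPM in B, against 4.65, 5.53, 5.79, 5.28 and 4.65 CPM in A. The rise was large in sg1 and NTC2 and absent in sg2, so that the letters overlapped (log2 fold change 0.67, SE 0.17, adjusted p = 0.00789). With DESeq2 the log2 fold change was 0.65 and the call was lost (adjusted p = 0.0726), and over all alternatives the log2 fold change ran from 0.47 to 0.86.

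AHRR, the repressor that competes with AHR for ARNT, was counted in 2 rows. The row ENSG00000286169 had 5.53, 2.63, 3.86, 5.20 and 3.97 CPM in the B libraries of sg1, sg2, sg3, NTC1 and NTC2, against 2.54, 2.80, 3.25, 3.38 and 2.01 CPM in A. Here too sg2 alone was not higher in B, and the log2 fold change was 0.58 (SE 0.15, adjusted p = 0.00858). The row ENSG00000063438 held only 3.23 to 18.76 expected counts per library, and did not pass the test (log2 fold change -0.57, SE 0.53, adjusted p = 0.456). With both rows summed the log2 fold change was 0.50 (SE 0.14, adjusted p = 0.0118). TIPARP went the other way, with 29.6, 28.5, 30.3, 30.6 and 31.0 CPM in B, against 32.4, 34.4, 32.3, 33.6 and 31.3 CPM in A. Its B libraries all lay below its A libraries, but by little (log2 fold change -0.13, SE 0.04, adjusted p = 0.0201), and the call was lost without line NTC1 (adjusted p = 0.0682), without line sg2 (0.120) and with DESeq2 (0.0566).

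CYP1B1, an AHR target that also oxidises oestrogens, had 40.8, 33.7, 37.2, 35.0 and 37.4 CPM in B, against 36.7, 37.9, 36.7, 36.0 and 32.2 CPM in A, and CYP1A2 had 0.166 to 0.537 CPM over all libraries. Neither passed the test (adjusted p = 0.60 for CYP1B1 and 0.448 for CYP1A2). The ratio of B to A varied between lines. For CYP1A1 the ratio was 2.69 in sg1, 0.899 in sg2, 1.15 in sg3, 1.45 in NTC1 and 2.35 in NTC2. For AHRR (ENSG00000286169) it was 2.17, 0.938, 1.19, 1.54 and 1.98 in the same order of lines. Line sg2 had the lowest ratio of the 5 lines for 10 of the 37 rows, namely CYP1A1, CYP1A2, CYP1B1, AHRR (ENSG00000286169), TIPARP, AHR, UGT1A6, UGT1A1, CYP4F12 and SULT1A1, a grouping made after the values were seen. That is 27.0% of the rows, beside 19.2% of all 15462 genes tested, and sg1 was the lowest line for as many of the 37 rows. CYP2S1, also a target of AHR, had its lowest ratio in NTC1 (0.916, beside 0.978 in sg2), and AHRR (ENSG00000063438) had its lowest in NTC2 (0.159). The difference between letters was not tested line by line, since a line has 1 library of each letter.

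The promoter windows of CYP1A1, AHRR and TIPARP are shown because rows of these genes of the AHR circuit differed by letter. CYP1A1 and AHRR (ENSG00000286169) were higher in B and TIPARP was lower. Windows were matched by symbol, and the annotation gave no position for AHRR row ENSG00000286169. The AHRR row with a position on chromosome 5, ENSG00000063438, did not pass the test of letters. The windows come from RefSeq on GRCh38.p14, run from 250 bases before to 50 bases after a start, and are written along the gene's strand. Capitals mark GCGTG, the core that AHR binds with ARNT, or its reverse complement. The CYP1A1 window is chr15:74725479-74725778 on the minus strand, with the core at -57 from the start. The AHRR window, the first of 2, is chr5:321464-321763 on the plus strand, with the core at -30, and the TIPARP window, the first of 3, is chr3:156674340-156674639 on the plus strand, with 2 cores. The other AHRR window holds 2 cores, and the other two TIPARP windows hold none.
CYP1A1: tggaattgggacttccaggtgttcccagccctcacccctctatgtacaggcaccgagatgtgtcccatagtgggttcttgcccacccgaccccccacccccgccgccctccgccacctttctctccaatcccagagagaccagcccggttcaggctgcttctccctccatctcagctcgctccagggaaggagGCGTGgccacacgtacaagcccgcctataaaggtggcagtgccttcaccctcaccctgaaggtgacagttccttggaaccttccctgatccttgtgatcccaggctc
AHRR: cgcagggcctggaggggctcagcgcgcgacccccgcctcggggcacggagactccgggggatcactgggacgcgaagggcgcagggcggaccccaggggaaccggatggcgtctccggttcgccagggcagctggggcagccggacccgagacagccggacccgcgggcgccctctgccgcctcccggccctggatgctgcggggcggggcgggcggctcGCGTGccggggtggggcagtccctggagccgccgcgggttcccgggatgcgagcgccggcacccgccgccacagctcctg
TIPARP: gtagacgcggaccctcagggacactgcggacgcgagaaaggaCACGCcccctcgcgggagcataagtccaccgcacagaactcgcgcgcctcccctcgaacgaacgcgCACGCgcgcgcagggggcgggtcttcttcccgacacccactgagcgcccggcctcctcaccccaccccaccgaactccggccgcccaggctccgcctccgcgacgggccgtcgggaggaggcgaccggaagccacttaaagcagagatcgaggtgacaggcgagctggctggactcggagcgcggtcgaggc

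A search of such windows found 31 of the 40 genes in the table of promoters. These genes had 44 windows in all, since some have several starts. GCGTG on either strand was present in 16 of the 44 windows (13 genes), and in 36.5% of all 35116 promoters. The longer form TNGCGTG, which contains the core, was in 4 of the 44 (UGT1A6, AHRR, CES2 and SULT2B1) and in 5.51% of all promoters. AGTTCA, a core repeated in the sites of nuclear receptors such as PXR, was in 7 of the 44, and in 10.4% of all promoters. TGACNNNGC, the antioxidant response element, was in 6 of the 44 and in 13.3% of all promoters. Motifs and their overlaps were counted as letters only, and a match says nothing of binding in these cells.

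CYP3A5 showed the largest fall of the 37 rows. It had 2.58, 2.11, 2.53, 2.27 and 2.47 CPM in the B libraries of sg1, sg2, sg3, NTC1 and NTC2, against 3.97, 3.51, 4.42, 4.23 and 3.78 CPM in A. All B libraries lay below all A libraries, with a log2 fold change of -0.73 (SE 0.10, adjusted p = 0.000133) and a ratio of B to A from 0.537 to 0.654 over the 5 lines. CYP3A4, the main drug oxidase of liver and gut, had 0.179, 0.352, 0.548, 0.459 and 0.427 CPM in B, against 0.581, 0.224, 0.350, 0.309 and 0.283 CPM in A. Its libraries overlapped at 7.27 to 24 expected counts each, and its log2 fold change was 0.19 (SE 0.35, adjusted p = 0.729). With CYP3A4, CYP3A5, CYP3A7 and CYP3A43 summed the log2 fold change was -0.63 (SE 0.09, adjusted p = 0.000178). The CYP3A5 promoter, chr7:99679947-99680246 on the minus strand, is shown because the gene fell in every line, with capitals for AGTTCA or its reverse complement, which begins at -113.
CYP3A5: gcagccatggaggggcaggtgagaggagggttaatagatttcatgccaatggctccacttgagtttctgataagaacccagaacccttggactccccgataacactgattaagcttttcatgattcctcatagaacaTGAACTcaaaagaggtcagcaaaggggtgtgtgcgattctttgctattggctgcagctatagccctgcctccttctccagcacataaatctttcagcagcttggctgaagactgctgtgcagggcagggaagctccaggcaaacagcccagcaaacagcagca

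Of the 7 other cytochromes P450 tested, 2 fell and 1 rose in B. CYP4F12 had 9.80, 7.01, 8.49, 8.53 and 7.93 CPM in the B libraries of sg1, sg2, sg3, NTC1 and NTC2, against 10.1, 9.94, 12.0, 11.2 and 9.61 CPM in A. It was lower in B in every line, although the letters overlapped (log2 fold change -0.34, SE 0.07, adjusted p = 0.00195). CYP2J2 had 33.0, 41.1, 35.4, 30.0 and 31.5 CPM in B, against 43.5, 40.9, 39.8, 38.0 and 37.0 CPM in A, with sg2 level between letters (log2 fold change -0.22, SE 0.05, adjusted p = 0.00332). CYP2W1, a cytochrome P450 of colorectal tumours, had 2.30, 2.53, 3.12, 2.84 and 2.85 CPM in B, against 1.99, 2.13, 2.15, 1.83 and 1.86 CPM in A. The B libraries lay above the A libraries (log2 fold change 0.45, SE 0.13, adjusted p = 0.0129), and the call was lost without line NTC1 (adjusted p = 0.0549) and without line sg3 (0.0522). The test was not passed by CYP2B6, an oxidase that PXR and CAR induce in liver, with 1.54 to 2.63 CPM in B and 1.17 to 2.15 CPM in A (log2 fold change 0.40, SE 0.16, adjusted p = 0.0787), nor by CYP2C18, with 1.29 to 2.09 CPM in B and 1.69 to 2.23 CPM in A (log2 fold change -0.37, SE 0.15, adjusted p = 0.0697). CYP4F3, which inactivates leukotriene B4, had 2.86 to 4.26 CPM in B and 3.56 to 4.85 CPM in A (log2 fold change -0.21, SE 0.11, adjusted p = 0.180).

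CYP2S1, another target of AHR, had 134, 136, 133, 119.6 and 123 CPM in the B libraries of sg1, sg2, sg3, NTC1 and NTC2, against 136, 139, 139, 131 and 134 CPM in A, and did not pass the test (log2 fold change -0.07, SE 0.03, adjusted p = 0.0605). POR had 139.8, 131, 129.6, 130.0 and 129 CPM in B, against 131, 132, 136, 131 and 134 CPM in A (log2 fold change -0.01, SE 0.03, adjusted p = 0.912). CES2 had 45.01, 47.1, 47.2, 49.0 and 43.3 CPM in B, against 46.4, 42.8, 45.3, 43.6 and 45.8 CPM in A (log2 fold change 0.05, SE 0.04, adjusted p = 0.380). For POR and CES2 the letters overlapped, and both 95% intervals lay within a change of 1.5-fold.

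The glutathione transferases GSTP1 and MGST1 were slightly lower in B. GSTP1 had 874, 827, 839, 810.1 and 855 CPM in the B libraries of sg1, sg2, sg3, NTC1 and NTC2, against 868, 878, 888, 894 and 913 CPM in A. The fall (log2 fold change -0.08, SE 0.03, adjusted p = 0.0288) did not pass the test when any line other than sg1 was left out (adjusted p 0.0589 to 0.131). MGST1 had 332, 344, 339.8, 326 and 358 CPM in B, against 355, 371, 361, 378 and 370.4 CPM in A, lower in B in all 5 lines (log2 fold change -0.11, SE 0.03, adjusted p = 0.00613). With a correction for GC content its log2 fold change was -0.06 and its adjusted p 0.0762.

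ABCB1 had 168, 196, 168, 163 and 176 CPM in the B libraries of sg1, sg2, sg3, NTC1 and NTC2, against 157, 148, 146, 127 and 145 CPM in A. The B libraries all lay above the A libraries (log2 fold change 0.27, SE 0.04, adjusted p = 0.000128). ABCC3 had 39.5, 30.7, 32.1, 29.9 and 29.2 CPM in B, against 37.2, 35.0, 37.6, 34.7 and 33.6 CPM in A, and was lower in B in 4 of 5 lines (log2 fold change -0.15, SE 0.04, adjusted p = 0.0204). Its call was lost when any line other than sg1 was left out (adjusted p 0.0632 to 0.0925). GSTM4, a mu class glutathione transferase at 4.31 ± 0.128 CPM per kilobase (SD, n = 5 lines), and ABCC2 overlapped between letters and did not pass (adjusted p = 0.735 and 0.831).

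Libraries of the 2 letters did not overlap at all for 9 of the 37 rows. In 7 of them, 18.9%, every B library lay above every A library, beside 10.2% of all genes, and in 2 of them, 5.41%, every B library lay below, beside 10.2% of all genes. Whether the difference between letters itself differed between guide and NTC lines was also tested. Of the 37 rows 0 were called, beside 0.0194% of all genes, and DESeq2 called 0 too. With edgeR 3 rows, 8.11%, had an unadjusted p under 0.05, beside 5.92% of all genes. These were UGT2B17 (guide minus NTC -0.39 in log2, interval -0.66 to -0.12), AHR (-0.15) and UGT1A10 (-0.15). Of all 37 estimates, 12 were positive and 25 negative. The interval lay within a change of 1.5-fold for 21 rows, 56.8%, beside 70.2% of all genes. In the other rows a larger difference was not excluded. Letters also moved with the markers of intestinal epithelium, whose summed level was 6189 to 7171 CPM in B libraries and 7557 to 7752 CPM in A libraries, with 6 of 10 markers past the test, beside 32.1% of all genes. The hepatocyte markers summed to 10.7 to 13.7 CPM in B and 7.30 to 9.57 CPM in A, with 1 of 7 past the test. Of these only SERPINA1 averaged 1 CPM or more, so the sum was nearly that of 1 gene. The fibroblast markers summed to 3.74 to 5.32 CPM in B and 3.83 to 4.93 CPM in A, with 1 of 6 past the test. Both counts stand beside 32.1% of all genes. The 4 hepatocyte markers and 1 fibroblast marker at 0 in all libraries could not be tested. The part of these markers in the results on letters was not tested. What the letters stand for is not given in the sources used here.

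**Figure D2:**
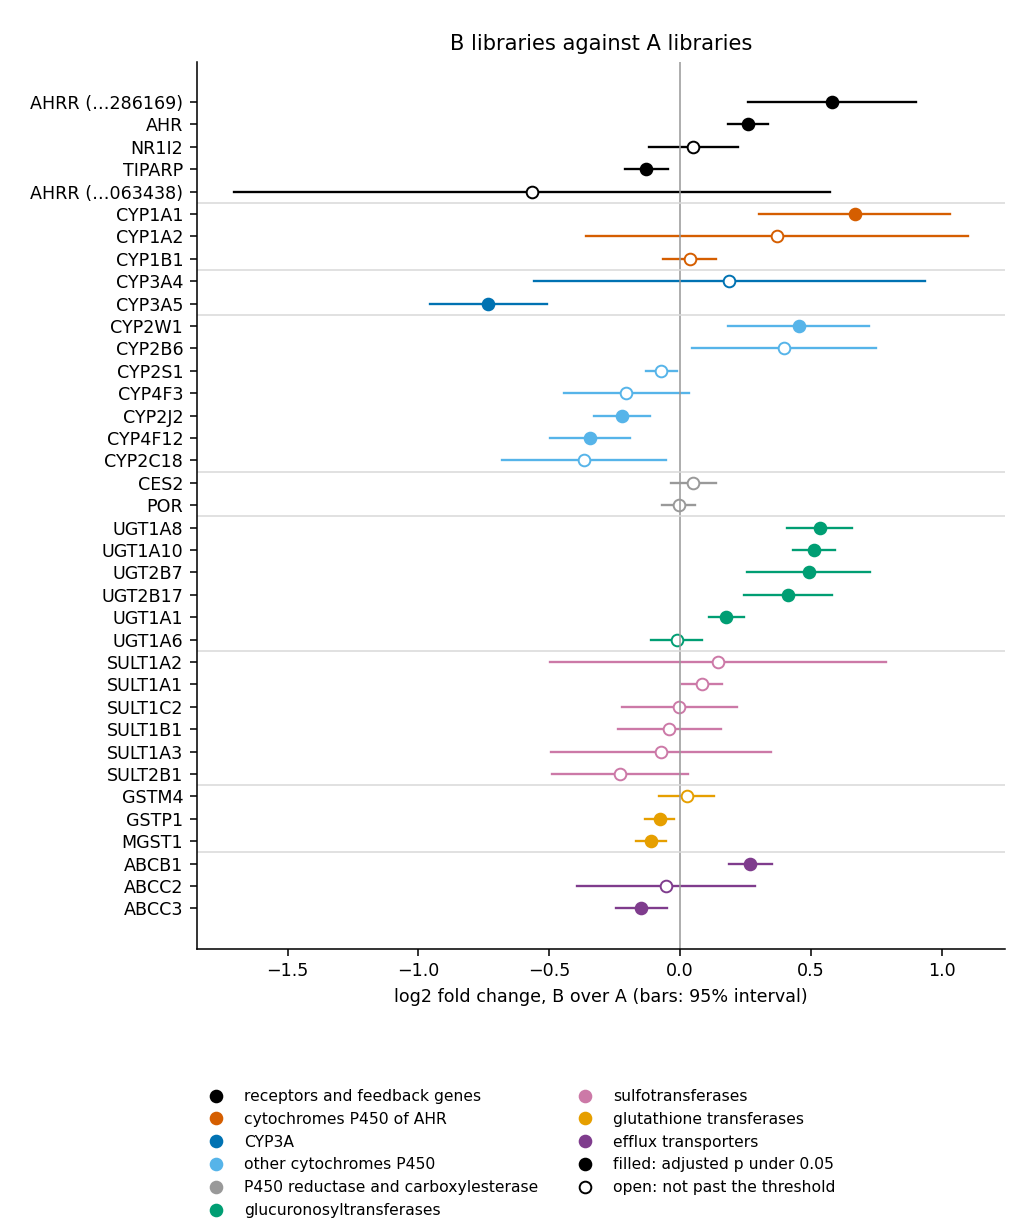
Log2 fold change of B over A for the 37 rows tested, with the line as a block, grouped by role. Points are estimates, bars 95% intervals and filled points have an adjusted p under 0.05. The glucuronosyltransferases other than UGT1A6 lie right of 0, and CYP3A5 lies farthest left of the filled points at -0.73. The sulfotransferases of the list are all open, and SULT1A4, the copy of SULT1A3, is not drawn.

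**Figure D3:**
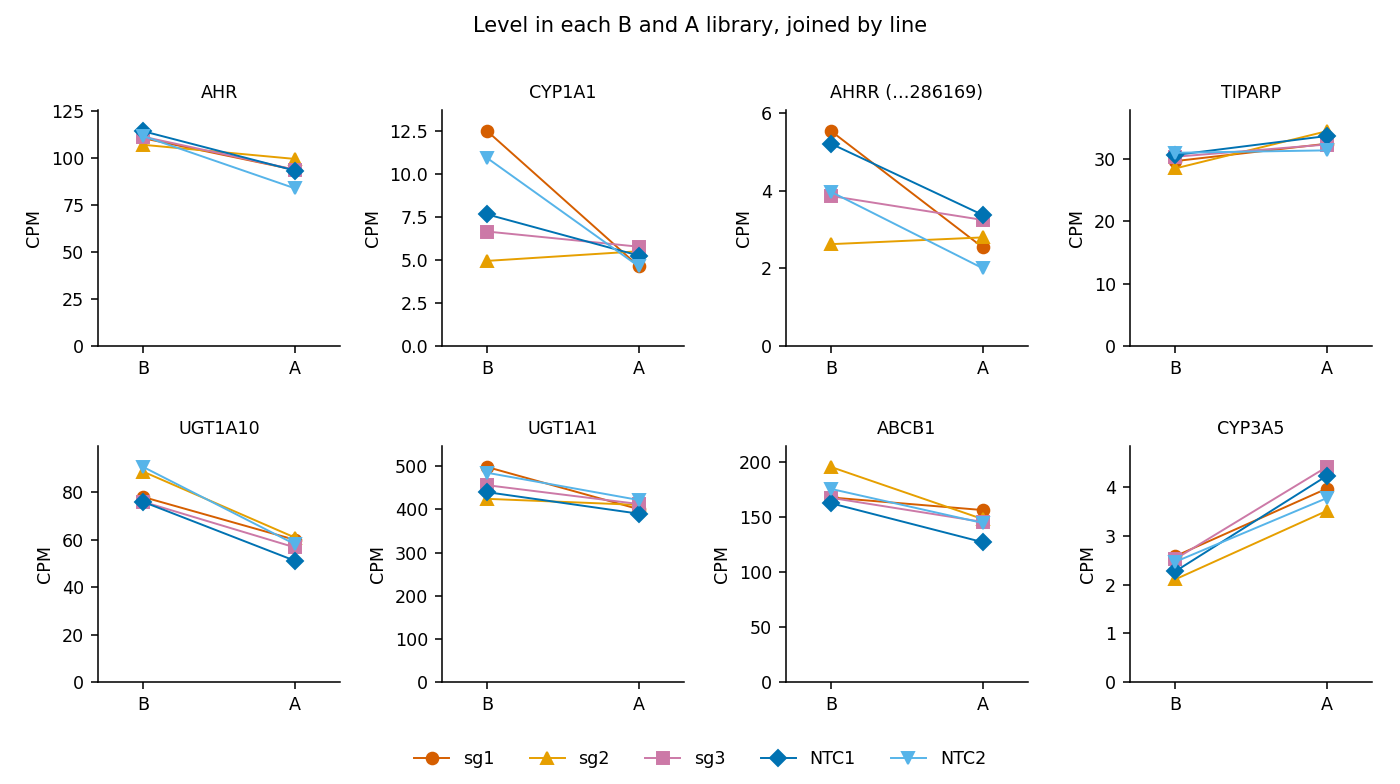
CPM of 8 drug metabolism genes in each library, with B left of A and the 2 libraries of a line joined. CYP1A1 and AHRR (row ENSG00000286169) rise in B most in sg1 and NTC2 and not in sg2. AHR, UGT1A10, UGT1A1 and ABCB1 are higher and CYP3A5 and TIPARP lower in B in all 5 lines.

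Other genes of the same pathways were read from a list of 98. Of the 73 tested for letters, 27 passed, or 37.0%, beside 32.1% of all genes, with 11 higher and 16 lower in B, and a median log2 fold change of 0.01. Among those higher in B were ALDH1A1, which oxidises retinal, with a log2 fold change of 0.63, and the corepressor gene NCOR1, with 0.31. Among those lower were GDA, a guanine deaminase, GSTO1, an omega class glutathione transferase, and SLCO1B3, an uptake transporter, with log2 fold changes of -0.30, -0.22 and -0.33.

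Comparing guide with NTC lines asks whether repressing RNASE1 came with a change in these genes. In the 3 guide lines against the 2 NTC lines, 0 of the 38 rows tested passed the adjusted threshold, beside 0.0231% of all 17335 genes. DESeq2 likewise called 0 of them, and 6 rows, 15.8%, had an unadjusted p under 0.05 with edgeR, beside 7.98% of all genes. The median log2 fold change over the 38 rows was 0.01, and for 32 of them, 84.2%, the 95% interval lay within a change of 1.5-fold, beside 73.9% of all genes.

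The smallest p belonged to CYP2J2, with 39.0 ± 1.74 CPM in guide lines (SD, n = 3) and 34.02 ± 0.261 CPM in NTC lines (SD, n = 2). Its log2 fold change was 0.20 (SE 0.04, adjusted p = 0.220), and its guide libraries, at 33.0 to 43.5 CPM, overlapped the NTC libraries, at 30.0 to 38.0 CPM, with both letters pooled. Within a letter they did not overlap, and the log2 fold change was 0.25 in B and 0.14 in A libraries. Guide and NTC libraries of CYP2S1 and ABCC3 did not overlap within a letter either. The share of all genes that separate in this way was not counted, so the separation is not read as a result. CYP2S1 followed with 136 ± 0.720 CPM in guide lines and 127 ± 2.78 CPM in NTC lines (log2 fold change 0.11, SE 0.03, adjusted p = 0.309). UGT2B17 had 8.01 ± 0.386 CPM in guide lines and 9.28 ± 0.533 CPM in NTC lines (log2 fold change -0.21, SE 0.07, adjusted p = 0.444). Its guide libraries lay below the NTC libraries in B only, at 8.32 to 9.01 CPM against 10.8 and 11.8 CPM. In A they overlapped, at 7.03 to 7.87 CPM against 6.90 and 7.53 CPM.

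The pumps ABCC3 and ABCB1 had log2 fold changes of 0.15 and 0.10 (SE 0.05 and 0.04, adjusted p = 0.481 and 0.610). The sixth was SULT1A3, taken up with its copies. CYP1A1 averaged 6.66 ± 1.66 CPM in guide lines and 7.15 ± 0.893 CPM in NTC lines (log2 fold change -0.11, 95% interval -0.44 to 0.22). For AHR the interval of the log2 fold change was -0.04 to 0.09, for NR1I2 -0.21 to 0.13, for UGT1A1 -0.09 to 0.08 and for CYP3A5 -0.24 to 0.27. CYP3A4 and CYP1A2, with few counts, had intervals from -0.69 to 0.71 and from -0.56 to 0.89. Their upper ends are 1.63-fold and 1.86-fold, so that changes over 1.5-fold were not excluded in them at this depth. Of 78 tested genes of the wider list, 0 passed, and 10 had an unadjusted p under 0.05.

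Each guide line was also set against the mean of the NTC lines, which the 3 comparisons share. These fits hold no letter term, so the difference between letters adds to their spread. With the letter as a block, SULT1A3 passed in sg3 and among the guides. None of the 38 rows passed in sg1, sg2 or sg3, beside 0.00609% of all 16411 genes in each (RNASE1 alone), with 2, 0 and 1 rows at an unadjusted p under 0.05 in edgeR, beside 2.3%, 1.82% and 2.16% of all genes. In NTC2 against NTC1 0 rows passed, beside 0.0% of all genes, and 1 row had an unadjusted p under 0.05, beside 1.72% of all genes. A difference among the 3 guide lines was found for 0 rows, beside 0.0% of all genes, again with 1 row under an unadjusted p of 0.05, beside 1.38% of all genes. SULT1A3 was among them in sg1, where the other was ABCC3 (log2 fold change 0.27), and was the only one in sg3, in NTC2 against NTC1 and among the guides.

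**Figure D4:**
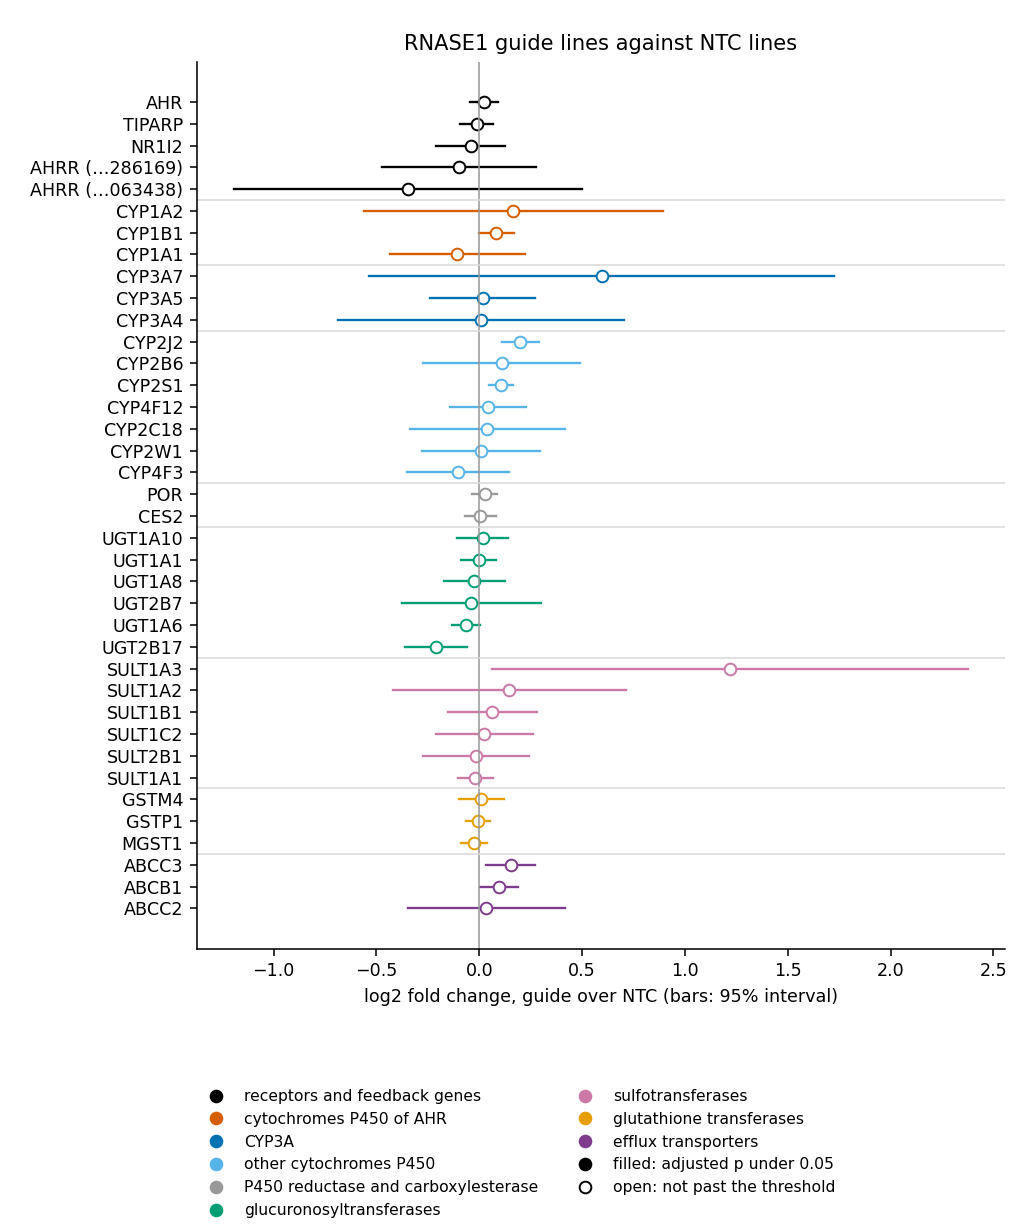
Log2 fold change of the 3 RNASE1 guide lines over the 2 NTC lines for the 38 rows tested, grouped by role. Points are estimates and bars 95% intervals, and all points are open because none had an adjusted p under 0.05. For 32 of the 38 rows the bar stays within a change of 1.5-fold, and SULT1A3, at 1.22, has the estimate farthest from 0.

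The SULT1A genes are near-identical copies on the short arm of chromosome 16. In GENCODE release 29 on GRCh38, SULT1A2 lies at 28591943 to 28597109 and SULT1A1 at 28605196 to 28623625, both on the minus strand, and SULT1A4 at 29459889 to 29464976 and SULT1A3 at 30199228 to 30204310, both on the plus strand. SULT1A1 sulfates small phenols, SULT1A3 and SULT1A4 encode the same enzyme, which sulfates dopamine, and SULT1A2 is a close relative of SULT1A1. SULT1A4 was not on the list of 40 and is given as the copy of SULT1A3. Over coding sequences of 888 bases, SULT1A3 and SULT1A4 had 0 differences, whereas SULT1A1 differed from SULT1A2 at 28 bases (96.8% identity) and from SULT1A3 at 49 (94.5%).

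The stretch from coding base 208 to 267 shows how the copies can and cannot be told apart. It was chosen as the 60 bases in which SULT1A1 and SULT1A3 differ most, and holds 12 of their 49 differences. Sequences are from GENCODE release 29 transcripts, and capitals mark the 12 positions at which SULT1A1 and SULT1A3 differ.
SULT1A1: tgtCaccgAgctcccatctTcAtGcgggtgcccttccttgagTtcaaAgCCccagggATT
SULT1A2: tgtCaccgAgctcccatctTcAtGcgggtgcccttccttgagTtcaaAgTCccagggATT
SULT1A3: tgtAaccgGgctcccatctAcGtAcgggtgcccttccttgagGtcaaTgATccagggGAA
SULT1A4: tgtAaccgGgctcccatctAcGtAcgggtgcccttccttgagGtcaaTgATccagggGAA

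Of all windows of 75 bases, 98.6% of the SULT1A3 transcript and 99.0% of the SULT1A4 transcript occurred in another gene, against 14.4% for SULT1A1 and 11.8% for SULT1A2. SULT1A1 had 31.0, 31.5, 32.5, 33.8 and 31.8 CPM in the B libraries of sg1, sg2, sg3, NTC1 and NTC2, against 29.3, 30.7, 31.3, 29.7 and 30.5 CPM in A. Guide and NTC libraries overlapped, and neither the guides (log2 fold change -0.02, adjusted p = 0.941) nor the letters (0.08, adjusted p = 0.0885) passed the test. SULT1A2 had 0.512, 0.586, 0.906, 0.5685 and 0.332 CPM in B, against 0.581, 0.537, 0.304, 0.618 and 0.543 CPM in A, at 13.47 to 38.1 expected counts a library.

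SULT1A3 had 3.51 and 1.94 CPM in the B and A libraries of sg1, 0.633 and 0.739 CPM in sg2, and 3.72 and 4.51 CPM in sg3, against 0.503 and 0.785 CPM in those of NTC1 and 1.31 and 1.72 CPM in those of NTC2. It was high in sg1 and sg3 and low in sg2 and NTC1, so guide and NTC libraries overlapped. The guide lines averaged 2.50 ± 1.73 CPM and the NTC lines 1.08 ± 0.620 CPM (log2 fold change 1.22, SE 0.53, adjusted p = 0.602). Against the mean of the NTC lines the log2 fold change was 2.06 in sg3 (SE 0.26, adjusted p = 0.172) and 1.46 in sg1 (SE 0.27, adjusted p = 1.00), and NTC2 against NTC1 gave 1.24 (SE 0.35, adjusted p = 1.0). With the letter as a replicate block, sg3 passed (log2 fold change 2.06, adjusted p = 0.00854), as did the difference among guides (adjusted p = 0.0230), and sg1 did not (adjusted p = 0.0942).

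SULT1A4, its copy, had 8.52 and 12.5 CPM in the B and A libraries of sg1, 11.3 and 13.7 CPM in sg2, and 9.97 and 11.1 CPM in sg3, against 13.1 and 13.5 CPM in those of NTC1 and 12.3 and 13.3 CPM in those of NTC2. The 3 libraries with the lowest SULT1A4 (both of sg3 and the B library of sg1) were the 3 with the highest SULT1A3. SULT1A3 took 29.2% and 13.4% of the pair's counts in the B and A libraries of sg1, 5.26% and 5.04% in sg2 and 27.2% and 28.9% in sg3, against 3.63% and 5.49% in NTC1 and 9.55% and 11.4% in NTC2. Over the 10 libraries SULT1A3 varied 8.97-fold, and the sum of both genes 1.3-fold, between 12.0 and 15.6 CPM. SULT1A4, which held most of the sum in every library, itself ran only from 8.52 to 13.7 CPM.

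With SULT1A3 and SULT1A4 summed, a choice made after the values were seen, the log2 fold change in guide lines was -0.04 (SE 0.06, adjusted p = 0.905). It was -0.09 in sg1, -0.10 in sg2 and 0.05 in sg3, and in sg3 with the letter as a block 0.05 (SE 0.07, adjusted p = 0.912). The sum was lower in B libraries than in A libraries (log2 fold change -0.18, SE 0.05, adjusted p = 0.0128), and the 4 SULT1A genes together had a log2 fold change of B over A of 0.00 (SE 0.03, adjusted p = 0.949). Read-through genes that join SULT1A3 or SULT1A4 to a neighbour held 30.45 to 70.61 (SLX1A-SULT1A3) and 13.29 to 31.57 (SLX1B-SULT1A4) expected counts per library.

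**Figure D5:**
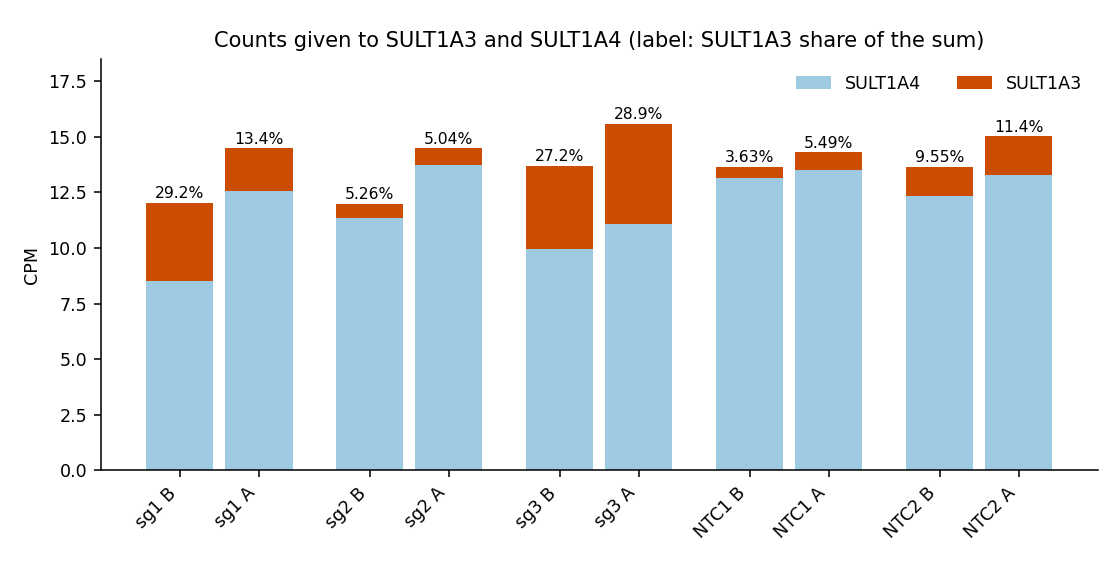
CPM given to SULT1A4 (lower part of each bar) and SULT1A3 (upper part) in each library, guide lines left of NTC lines and B left of A within a line. The number above a bar is the SULT1A3 share of the sum, which runs from 3.63% in NTC1 B to 29.2% in sg1 B while bar heights stay between 12.0 and 15.6 CPM.

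Of the other sulfotransferases, SULT2B1 had 2.25, 2.65, 2.65, 3.17 and 2.45 CPM in the B libraries of sg1, sg2, sg3, NTC1 and NTC2, against 3.39, 3.38, 2.73, 3.04 and 2.88 CPM in A. Its letters overlapped, and it did not pass the test (log2 fold change -0.23, SE 0.12, adjusted p = 0.172). SULT1C2 and SULT1B1 ran from 3.13 to 4.42 CPM and from 3.35 to 4.07 CPM over all 10 libraries, with 95% intervals of the log2 fold change of guide over NTC lines from -0.21 to 0.26 and from -0.15 to 0.28.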

How the data were processed

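Messenger RNA of 10 LS180 libraries was sequenced from poly(A) RNA with random primers, per the labels' protocols, which do not mark strand. What the authors deposited is a single gene table of expected counts, made with RSEM per the name of the table. CASAVA 1.8.2, TopHat2 2.0.8, FastQC 0.11.2 and build hg38 are named in the submitters' processing notes, and the annotation release is not given in the sources used here. Expected counts were rounded to whole numbers, a shift of at most 0.5 that touched 7.12% of values. Libraries held 39026605 to 45050991 counts.

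The 40 genes, the list of 98 further pathway genes, the markers and the tests were chosen with earlier results of these data known. Groups came from the sample titles. CPM used TMM library sizes (edgeR 4.0.16, limma 3.58.1, R 4.3.3). Low counts were filtered with filterByExpr. Guide lines were compared with NTC lines on the summed counts of each line. Single lines were compared in a fit of 10 libraries with 5 line means, and letters in a fit with line and letter. All used edgeR's quasi-likelihood test with Benjamini-Hochberg adjustment over all genes tested and a threshold of 0.05. Intervals are 95% intervals of the log2 fold change. The fits were tested on simulated data.

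Libraries of the same letter deviated together in 10 of 10 pairs of lines over 9527 genes of 10 CPM or more (correlation 0.483 to 0.779) and in 8 of 10 pairs over all 16411 genes, so the letters pair the libraries. The fits of single lines hold no letter term, and the letter as a block is an alternative whose value is given beside a result where it changed the call. Alternatives were DESeq2 1.42.0, its size factors, other filters, a GC correction, the letter as a block, single letters, lines or libraries left out, and summed gene copies. Values per library are given for genes past the threshold, the 2 most abundant of each role and the SULT1A copies, and genes named beyond that rule were chosen after their values were seen. Of the table's rows, 58552 matched GENCODE release 29 by identifier, which gave lengths, coordinates on GRCh38 and transcripts. Promoter sequences are from RefSeq. Shared sequence was counted over windows of 75 bases, and genes that share it have estimated counts that RSEM divides between them. A gene of the further list is not reported here.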

Additional observations from a re-analysis of the deposited data

Results flagged for a closer look

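In 4 of 74 groups of 5 libraries of 1 letter, a library stood far from the other 4, where chance alone would give about 1 in 20, or 3.7. ABCC3 had 39.5 CPM in the B library of sg1, against 29.2 to 32.1 CPM in the other B libraries. POR had 139.8 CPM in that same library, against 129 to 131 CPM in the others of its letter. SULT1B1 had 3.35 CPM in the A library of NTC2, against 3.87 to 4.07 CPM in the other A libraries. SULT1A2 had 0.304 CPM in the A library of sg3, against 0.537 to 0.618 CPM in the others.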

How the results depend on the processing

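No gene whose value was recomputed under the alternatives changed sign when fitted as its own row. Sums differ from their members: SULT1A3 alone had a log2 fold change of 1.22 in guide lines and 1.46 in sg1, against -0.04 and -0.09 for SULT1A3 and SULT1A4 summed, and AHRR (ENSG00000063438) had -0.57 by letter, against 0.50 for both AHRR rows summed. In guide lines against NTC lines the count of called drug metabolism genes was 0 except without a filter on low counts, where it was 3 (SULT1A3, CYP2J2 and ABCC3). With DESeq2, 1 was called in sg1, 1 in sg3 and 1 among the guides, in each case SULT1A3. Without a filter 1 was called in sg1, 1 in sg3, 1 in NTC2 against NTC1 and 2 among the guides (SULT1A3 and CYP1A1). With the letter as a replicate block 1 was called in sg3 and 1 among the guides, and with the block and a GC correction 1 in sg3, and the block changed no other call among these genes. The cause was not tested. Leaving out single libraries or lines left 0 called in each of these comparisons, while the letter comparison had 13 to 19 calls, of which 13 to 17 were among the 17 reported. SULT1A3 in sg1 had a log2 fold change of 0.97 without sg1 replicate B, against 1.46 with it.

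Over all genes, guide lines against NTC lines had 4 calls, 55 with DESeq2, 238 without a filter, 2 with the letter as a replicate block, 9 with line means and the block, 11 in A libraries alone, and 1 to 29 with a line or library left out. With DESeq2, without a filter and with the block, sg1 had 6, 69 and 4 calls, sg2 had 4, 95 and 2, sg3 had 4, 86 and 6, NTC2 against NTC1 had 2, 57 and 2, and the guides among themselves had 8, 141 and 8, against 1, 1, 1, 0 and 0 as reported. With block and GC correction, sg2 had 3 and sg3 had 5. The letter difference between arms had 3, 101 without a filter, 0 with the GC correction and up to 7 with a line left out. Genes under about 1 CPM, such as CYP3A4 and CYP1A2, are limited by their counts.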
